A study of Mus musculus with 13 samples.

Results

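The genes described here are 48 genes of DNA replication and S phase, out of 24417 named genes counted in sorted mouse T cells. A gene was taken when its symbol stood in a list fixed by function, and all 48 were found in both count tables. None was lost to the filter on low counts, which kept 14925 genes in the male libraries, 13166 in the female libraries and 15201 over all 13 libraries. The lowest count of any of the 48 in a library was 55, for *Gins1*.

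The study asked what restoring the transcription factor Foxp3 does to Treg "wannabes", cells that transcribe *Foxp3* from an allele blocked by a STOP cassette and carry a Thy1.1 reporter in place of Foxp3 protein. All mice were C57BL/6, and cells were doubly sorted from spleen and lymph node. In the first experiment, all males were given 4-OHT (4-hydroxytamoxifen) at postnatal day 14 and analysed at day 21. Control Treg cells (3 libraries) came from healthy *Foxp3*DTR-GFP/y *Cd4*creERT2 mice. Rescued Treg cells (3 libraries) came from *Foxp3*LSL/y *Cd4*creERT2 mice, whose recombinase, expressed in *Cd4*-expressing cells and active only with 4-OHT, removes the cassette. "Wannabes" (2 libraries) came from diseased *Foxp3*LSL/y *Cd4*wt mice, which lack the recombinase. In the second experiment, females aged 9 to 11 weeks without the recombinase (*Cd4*wt) were given diphtheria toxin. Activated "wannabes" (2 libraries) came from *Foxp3*LSL/DTR mice, whose Treg cells the toxin kills, and resting "wannabes" (3 libraries) from *Foxp3*LSL/WT mice, which keep wild-type Treg cells. The control Treg cells thus differ from the rescued ones in their *Foxp3* allele as well as in the health of the host, and these differences cannot be told apart. Both Treg groups differ from the "wannabes" of the males in Foxp3 protein and in the recombinase. Control Treg cells differ from them also in allele and in the health of the host, and these differences cannot be told apart either.

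Libraries held between 25556783 and 36659638 counts on genes. Levels are CPM, a gene's counts relative to library size after TMM scaling within each experiment, listed in the order of the replicate numbers, and levels of the separately scaled experiments are not compared. *Foxp3* was at 167, 215 and 252 CPM in control Treg cells, 865, 909 and 1109 in rescued Treg cells and 84.2 and 99.8 in "wannabes" of males. T cell markers were high in every library (summed 2612 to 4055 CPM over 5 genes). Summed markers of B cells (5 of 6 listed genes in the tables), myeloid cells (6), CD8 T and NK cells (4), immature thymocytes (4) and erythroid cells (5 of 6) reached at most 44.1, 10.9, 34.6, 4.03 and 18.4 CPM, and *Rag1* was at 0 in every library. The study's methods say that controls were in general littermates, but no source used here says which libraries shared a litter or a day, so litter could not enter the tests, which measure the spread between the mice or samples of a group.

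A cell copies its DNA once per cycle, in S phase. In G1 the origin recognition complex, with Cdc6 and Cdt1, loads the ring of Mcm2 to Mcm7 onto origins, which is called licensing. Cyclin E with its kinase and the E2F transcription factors open S phase, Cdc45 and the GINS complex join the ring to make the active helicase, and polymerases, the sliding clamp and the enzymes of deoxynucleotide supply then carry out the copying. E2F factors bind many promoters of these genes, and T cells that leave rest induce the genes together. In bulk RNA, fewer cells in S phase and less of an RNA per cell cannot be told apart.

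Because many of these genes are textbook E2F targets, promoter sequences of RefSeq (GRCm38.p6, 250 bases before to 50 after a start site) were searched for an E2F-type motif in its spellings TTTCCCGC, TTTCGCGC, TTTGCCGC and TTTGGCGC on both strands, where matches may overlap. The table held 40 of the 48 genes, in 46 windows. The motif stood in 15 of the 40 genes (37.5%), against 4.27% of the 11704 genes in the table that were tested for expression and 2.6% of all 27025 genes there. It stood in 32.6% of their windows, against 3.56% of the windows of genes tested and 2.26% of all windows of that length. The upstream stretches of *Mcm5* and *Mcm6* are shown because these subunits of a single ring were called in opposite directions between rescued Treg cells and "wannabes". Both run 5′ to 3′ on the gene's strand and end at the base before the RefSeq start, in sequence that is upstream of the GENCODE gene, and capitals mark the matches, 2 of which overlap in each.
Mcm5, chr8:75109259-75109508, plus strand: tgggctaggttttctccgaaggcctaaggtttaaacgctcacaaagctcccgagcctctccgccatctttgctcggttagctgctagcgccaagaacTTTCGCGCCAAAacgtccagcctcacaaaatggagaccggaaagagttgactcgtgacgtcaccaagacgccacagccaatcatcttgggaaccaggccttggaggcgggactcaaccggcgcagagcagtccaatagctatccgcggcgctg
Mcm6, chr1:128359706-128359955, minus strand: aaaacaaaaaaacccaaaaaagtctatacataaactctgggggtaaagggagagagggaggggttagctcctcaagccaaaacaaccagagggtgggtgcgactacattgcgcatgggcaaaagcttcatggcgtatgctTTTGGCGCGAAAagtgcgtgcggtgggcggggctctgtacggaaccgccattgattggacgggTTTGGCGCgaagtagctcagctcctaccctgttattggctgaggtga
The sites nearest the start site in 6 further genes to which the results return are given with the bases around them, again with matches in capitals. In GENCODE the *Mcm3* and *Rfc3* sites lie in the 5′ UTR, so does the *Cdt1* site, though the bases after it reach the first codons, the *Cdc6* site is intronic in a gene model that starts further upstream than RefSeq's, and the *Pola1* and *E2f2* sites are upstream of the gene.
Mcm3, chr1:20820275-20820304, minus strand: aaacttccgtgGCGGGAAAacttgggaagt
Cdc6, chr11:98908002-98908031, plus strand: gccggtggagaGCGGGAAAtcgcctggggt
Cdt1, chr8:122568035-122568064, plus strand: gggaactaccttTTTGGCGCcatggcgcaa
Pola1, chrX:93632275-93632304, minus strand: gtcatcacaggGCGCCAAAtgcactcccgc
Rfc3, chr5:151651190-151651219, minus strand: cTTTCGCGCtcGCGGGAAAactctactgtc
E2f2, chr4:136172294-136172323, plus strand: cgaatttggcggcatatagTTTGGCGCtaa

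**Figure D1:**
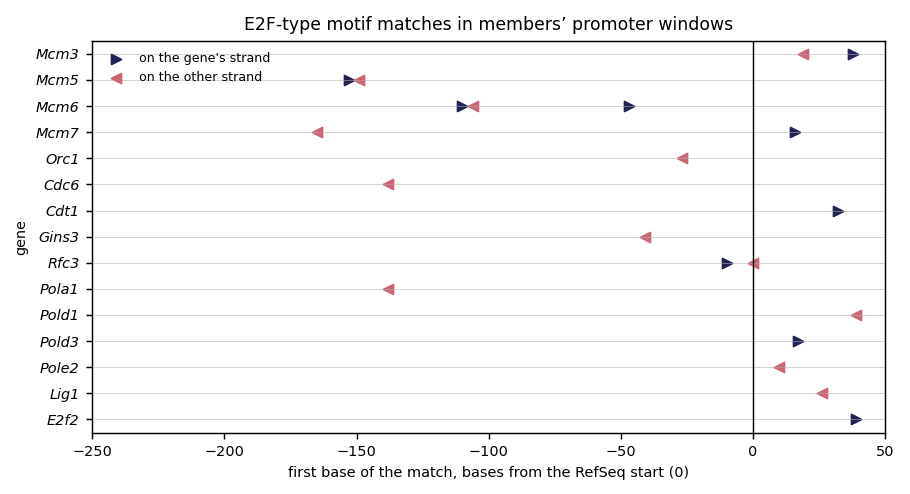
First base of each E2F-type motif match (triangles, pointing right on the gene's strand and left on the other) against the distance in bases from the RefSeq start, for the 15 genes with a match. Matches lay from 165 bases upstream (*Mcm7*) to 39 bases downstream (*Pold1*, *E2f2*).

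In the females, nearly the whole set was higher in activated than in resting "wannabes". Of the 48 genes, 45 passed edgeR's quasi-likelihood test at a Benjamini-Hochberg adjusted p under 0.05 as higher, where 11.3% of all genes tested did, and 0 passed as lower (11.2% of genes tested), as was also so at an unadjusted p and with DESeq2. The median log2 fold change of the set was 1.21, against -0.01 for all genes tested. In 47 of the 48 genes both activated libraries lay above all 3 resting libraries (27.9% of genes tested), and only *Gins4* overlapped. *Gins4*, *Rpa1* and *Rpa3* did not pass edgeR's test. Some calls were lost when a single female library was left out, among them those of *Mcm6* (values from 0.38 to 0.53), *Rfc1* (0.31 to 0.40) and *Pold2* (0.42 to 0.52). The summed level of the set was 2716, 3102 and 2771 CPM in the resting libraries and 5549 and 5792 CPM in the activated ones.

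Between control Treg cells and "wannabes" of the males, the set was lower in the Treg cells. Foxp3 protein, allele, recombinase and health of the host differ between these groups at once. The test called 22 of the 48 genes as lower (6.27% of genes tested) and 0 as higher (9.92% of genes tested), with 0 also at an unadjusted p under 0.05 and with DESeq2. DESeq2 called 27 as lower (11.0% of genes tested). The median log2 fold change was -0.95, against 0.09 for all genes tested, and 27 genes had every control library below both "wannabe" libraries (20.7% of genes tested). The other way round, 2 had every control library above both (25.4% of genes tested). The number called rested on single libraries. It was 10 without control Treg replicate 2 and also 10 without "wannabe" replicate 1, 12 without control Treg replicate 1, and 29 without "wannabe" replicate 2. Of the 22 calls, 9 were kept in all 8 fits that left out 1 library, and the median of the set was -0.63 without "wannabe" replicate 1.

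Rescued Treg cells were compared with the same "wannabe" libraries, so their values are not independent of those above. The test called 10 of the 48 as lower (4.06% of genes tested) and 2, *Mcm6* and *Cdt1*, as higher (10.0% of genes tested). The median log2 fold change was -0.72, against 0.00 for all genes tested, and 23 genes had every rescued library below both "wannabe" libraries (20.7% of genes tested). The other way round, 2 had every rescued library above both (22.0% of genes tested). In all, 12 genes were called, which became 3 without rescued Treg replicate 2, 5 without "wannabe" replicate 1 and 20 without "wannabe" replicate 2. Only the call of *Mcm2* was kept in all 8 fits that left out 1 library, and the median of the set was -0.30 without "wannabe" replicate 1. DESeq2 called 20, of which 18 were lower (8.39% of genes tested) and 2 higher (14.5%).

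Between rescued and control Treg cells, 0 of the 48 genes passed with edgeR, where 1.43% of genes tested were called higher and 0.864% lower. At an unadjusted p under 0.05, 9 of the 48 were higher (9.11% of genes tested) and 1, *Gins3*, was lower (6.99% of genes tested). DESeq2 called 2 as higher, *Fen1* and *Ccne1* (4.95% of genes tested), and 0 as lower. The fold change was above 0 for 42 of the 48, with a median of 0.29 against -0.03 for all genes tested. That median was 0.15 without control Treg replicate 2 and 0.16 without rescued Treg replicate 1. Among the 48, 10 had all rescued libraries above all control libraries (12.6% of genes tested), and 2, *Gins3* and *Rfc1*, had all of them below (11.6%). Summed over the set, the level was 3546, 2743 and 3896 CPM in control Treg cells, 4946, 3767 and 4036 CPM in rescued Treg cells and 7357 and 5072 CPM in "wannabes". The means of 37 genes ran in the order "wannabe", rescued, control from high to low, and 41 had their highest mean in "wannabes".

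**Figure D2:**
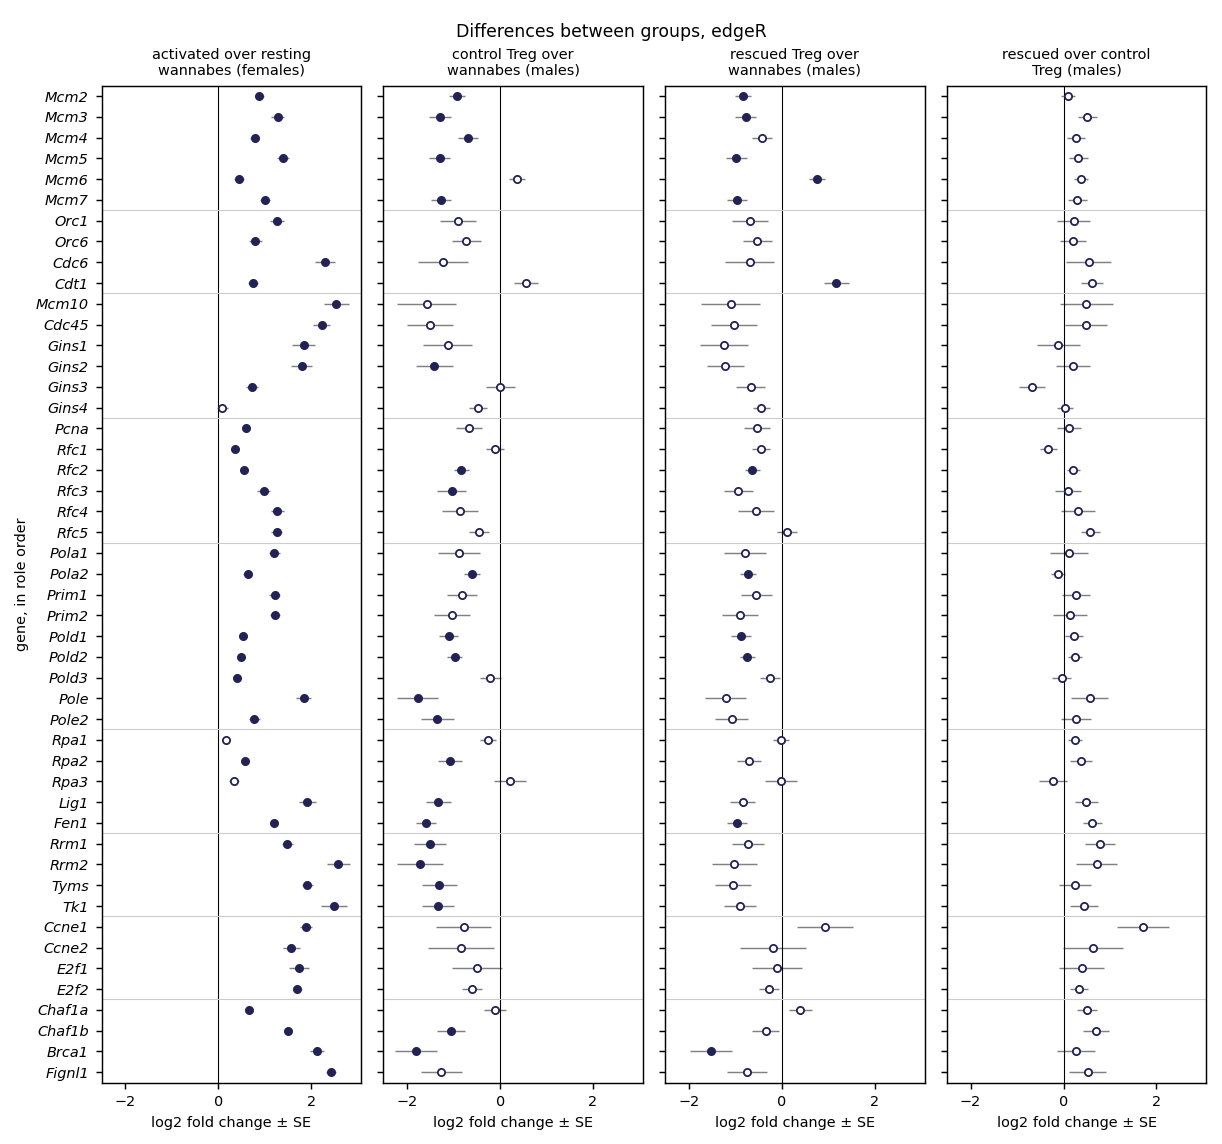
Log2 fold change with its standard error (horizontal axis) of each of the 48 genes (rows, ordered by role with lines between roles) in 4 comparisons; filled points passed edgeR at an adjusted p under 0.05. All points lie right of 0 for activated over resting "wannabes", with 45 filled, most lie left of 0 for both Treg groups over "wannabes" (22 and 12 filled), and none is filled for rescued over control Treg cells.

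The 6 genes of the replicative helicase ring were all higher in activated than in resting "wannabes". *Mcm5* stood at 89.2, 110 and 97.6 CPM in the resting libraries and at 237 and 283 CPM in the activated ones, a log2 fold change of 1.39 ± 0.12 (SE, adjusted p = 8.68e-04, edgeR). The groups were well apart. The others rose by 0.44 (*Mcm6*) to 1.28 (*Mcm3*).

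In the males, 5 of the 6 fell in control Treg cells relative to "wannabes". *Mcm5* was at 206, 139 and 212 CPM in control Treg cells, 285, 178 and 233 in rescued Treg cells and 513 and 402 in "wannabes". No Treg library reached a "wannabe" library, and *Mcm5* was lower by both comparisons, with log2 fold changes of -1.30 ± 0.23 for control (adjusted p = 0.00419, edgeR) and -0.98 ± 0.23 for rescued Treg cells (adjusted p = 0.0170, edgeR). *Mcm2*, *Mcm3* and *Mcm7* were called lower in both Treg groups too, *Mcm2* at -0.92 and -0.83, *Mcm3* at -1.29 and -0.78, and *Mcm7* at -1.27 and -0.97 in control and rescued Treg cells. The rescued call for *Mcm3* was kept in 2 of 8 fits that left out 1 library, and its value was -0.42 without "wannabe" replicate 1. *Mcm4* stood at -0.69 in control and -0.43 in rescued Treg cells. Its control value passed, a call kept in 2 of 8 such fits, and was -0.44 without "wannabe" replicate 1.

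*Mcm6* (chromosome 1, 128331590 to 128359664, minus strand, GENCODE M21) went the other way. Its level was 413, 317 and 374 CPM in control Treg cells, 551, 445 and 443 CPM in rescued Treg cells, and only 307 and 261 CPM in "wannabes". Both "wannabe" libraries were below every Treg library. The log2 fold change was 0.76 ± 0.17 in rescued Treg cells (adjusted p = 0.0146, edgeR) and 0.37 ± 0.17 in control Treg cells, which did not pass (adjusted p = 0.166, edgeR). The upper quartile of all genes tested was 0.78 and 0.86 in these comparisons. The rescued call kept its direction when each male library was left out in turn and stayed past the threshold in 6 of 8 fits.

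Per kilobase of exon, which allows genes to be compared, *Mcm6* was the highest of the 6 in control Treg cells, at 78.8 ± 10.3 CPM per kb (mean ± SD, n = 3), and in rescued Treg cells, at 103 ± 13.3 CPM per kb (n = 3). In "wannabes" of the males it ranked below *Mcm3*, *Mcm4*, *Mcm5* and *Mcm7*, at 60.8 ± 6.90 CPM per kb (n = 2) against 115 ± 19.6 CPM per kb for *Mcm5* (n = 2). Among the females *Mcm6* was again the highest, at 90.9 ± 9.75 CPM per kb in resting (n = 3) and 123 ± 1.57 CPM per kb in activated "wannabes" (n = 2). *Mcm5* was at 24.7 ± 2.56 and 65.0 ± 8.16 CPM per kb in these groups.

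**Figure D3:**
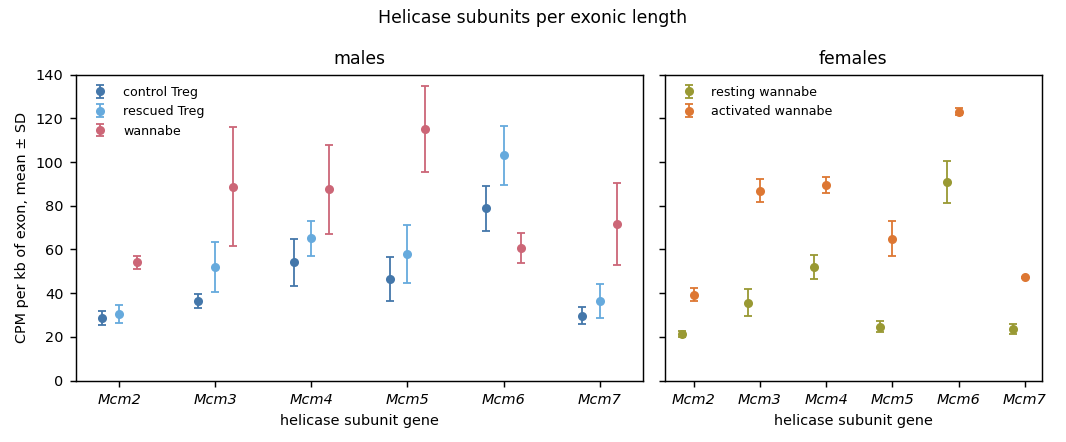
CPM per kb of exon (mean and SD as bars, 2 or 3 libraries a group) for the 6 helicase genes in the males (left) and females (right), which were scaled separately. *Mcm6* is the only one of the 6 with its "wannabe" mean below both Treg means, 60.8 against 78.8 and 103 CPM per kb.

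Among the origin licensing factors, all 4 rose in activated "wannabes". *Cdc6*, the loader of the ring, went from 9.32, 16.2 and 12.7 CPM in the resting libraries to 61.2 and 63.2 CPM in the activated ones, a log2 fold change of 2.29 ± 0.22 (adjusted p = 0.00121, edgeR). Each activated library was above all resting ones by more than their spread. *Orc1* and *Orc6*, subunits of the origin recognition complex, rose by 1.26 and 0.79.

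None of the licensing factors passed the test between control Treg cells and "wannabes". *Cdc6* was at 19.6, 7.03 and 36.7 CPM in control Treg cells, 44.4, 24.0 and 23.9 CPM in rescued Treg cells and 58.5 and 40.7 CPM in "wannabes". The control libraries spread over more than the gap to the "wannabes", and the log2 fold change was -1.23 ± 0.53 (adjusted p = 0.138, edgeR).

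*Cdt1* (chromosome 8, 122568015 to 122573554, plus strand), which brings the ring to the origin, shared the direction of *Mcm6*. It was at 39.8, 33.8 and 39.8 CPM in control Treg cells, 74.2, 52.8 and 46.6 CPM in rescued Treg cells, and 21.6 and 30 CPM in "wannabes". The 3 groups did not overlap, and *Cdt1* and *Mcm6* were the 2 genes of the set with every Treg library above both "wannabe" libraries. Of all genes tested, 22.0% had every rescued library above them. Rescued Treg cells were higher than "wannabes" by 1.17 ± 0.27 (adjusted p = 0.0149, edgeR), a call kept in 7 of 8 fits that left out 1 male library each, while control Treg cells did not pass (0.55 ± 0.26, adjusted p = 0.182, edgeR). In the females *Cdt1* rose with activation, from 38.0, 41.1 and 36.5 CPM to 69.5 and 59.1 CPM (0.74 ± 0.11, adjusted p = 0.00627, edgeR).

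Of the 6 genes that turn the loaded ring into a moving helicase, 5 rose in activated "wannabes". *Mcm10*, which helps to open the origin, changed second most of the whole set, from 5.07, 8.79 and 5.04 CPM to 32.9 and 40.0 CPM (2.53 ± 0.27, adjusted p = 0.00174, edgeR). *Cdc45*, a helicase subunit, went from 10.8, 10.1 and 9.10 CPM to 38.5 and 54.8 CPM (2.22 ± 0.18, adjusted p = 7.66e-04, edgeR). The GINS genes did not move as 1 group, since *Gins1*, *Gins2* and *Gins3* rose by 1.83, 1.79 and 0.73 while *Gins4* stood at 47.1, 57.7 and 57.5 CPM in resting and 57.5 and 56.8 CPM in activated cells (0.08 ± 0.12, adjusted p = 0.656, edgeR).

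In the males *Mcm10* was at 28.1, 3.11 and 19.2 CPM in control Treg cells, 29.3, 17.7 and 23.6 CPM in rescued Treg cells and 64.0 and 36.9 CPM in "wannabes", with control Treg replicate 2 far below the rest (-1.58 ± 0.63 for control Treg cells, adjusted p = 0.113, edgeR). *Gins2* alone of these 6 passed by edgeR, as lower in control Treg cells than in "wannabes". DESeq2 also called *Cdc45* (adjusted p = 0.00773) and *Gins4* (adjusted p = 0.0470) there, and *Gins2* in rescued Treg cells (adjusted p = 0.0214). The levels of *Gins2* were 16.1, 10.1 and 18.2 CPM in control Treg cells, 23.3, 15.6 and 12.2 CPM in rescued Treg cells and 55.1 and 24.3 CPM in "wannabes" (-1.42 ± 0.40 for control Treg cells, adjusted p = 0.0350, edgeR). "Wannabe" replicate 1 held more than replicate 2, and without it the value was -0.72 (adjusted p = 0.321, edgeR). *Gins2* shares 67.3% of its exonic bases with *Gse1* on the opposite strand, and the sources do not say whether counting used strand. *Cdc45* spread widely, with 18.9, 12.6 and 41.3 CPM in control Treg cells, 36.9, 24.6 and 40.3 CPM in rescued Treg cells and 100 and 37.9 CPM in "wannabes", with a log2 fold change of -1.51 ± 0.49 for control Treg cells (adjusted p = 0.0583, edgeR).

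The clamp Pcna, a ring that holds polymerases on DNA, and the 5 genes of its loader, replication factor C, all rose in activated "wannabes", with a median of 0.78. *Pcna* went from 104, 117 and 107 CPM to 165 in both activated libraries (0.60 ± 0.08, adjusted p = 0.00422, edgeR). *Rfc3* went from 19.9, 24.9 and 19.4 CPM to 41.7 and 41.9 CPM (0.97 ± 0.14, adjusted p = 0.00530, edgeR). *Rfc1*, the largest loader subunit, rose least (0.36) and *Rfc4* most (1.27).

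Of these 6 genes, *Rfc2* and *Rfc3* fell in control Treg cells relative to "wannabes", and *Rfc2* also in rescued ones, by edgeR. DESeq2 also called *Rfc3* in rescued Treg cells (adjusted p = 0.0209). *Rfc3* was at 27.3, 25.3 and 28.8 CPM in control Treg cells, 42.0, 20.3 and 24.7 CPM in rescued Treg cells and 65.1 and 46.6 CPM in "wannabes" (-1.04 ± 0.31 for control Treg cells, adjusted p = 0.0410, edgeR), a call kept in 4 of 8 fits and lost when any control Treg library or "wannabe" replicate 1 was left out. *Rfc2* changed by -0.84 and -0.64 in control and rescued Treg cells. *Pcna* did not pass, with 157, 102 and 147 CPM in control Treg cells, 179, 146 and 116 CPM in rescued Treg cells and 275 and 153 CPM in "wannabes", whose replicate 2 lay within the Treg range.

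All 9 polymerase and primase genes rose with activation, by 0.40 (*Pold3*) to 1.83 (*Pole*). *Pola1*, the catalytic subunit of the polymerase that starts each new strand, went from 19.9, 22.2 and 19.3 CPM to 50.9 and 43.4 CPM (1.20 ± 0.12, adjusted p = 0.00157, edgeR). *Pole*, the catalytic subunit of the leading-strand polymerase, went from 9.88, 10.0 and 12.4 CPM to 41.8 and 34.7 CPM (1.83 ± 0.16, adjusted p = 8.74e-04, edgeR). Polymerase delta genes (*Pold1*, *Pold2*, *Pold3*), which copy the lagging strand, rose by 0.53, 0.48 and 0.40.

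In the males 5 of the 9 fell in control Treg cells relative to "wannabes" (*Pola2*, *Pold1*, *Pold2*, *Pole* and *Pole2*), and 3 of the 9 fell in rescued ones (*Pola2*, *Pold1* and *Pold2*) by edgeR. DESeq2 also called *Pole* (adjusted p = 0.0281) and *Pole2* (adjusted p = 0.0238) as lower in rescued Treg cells. In control Treg cells *Prim2* was called lower by DESeq2 too (adjusted p = 0.0343, against 0.0945 with edgeR). *Pole* was at 21.8, 9.78 and 22.6 CPM in control Treg cells, 30.4, 16.6 and 32.6 CPM in rescued Treg cells and 85.7 and 37.3 CPM in "wannabes". No Treg library reached the "wannabes", and the log2 fold change was -1.77 ± 0.44 in control (adjusted p = 0.0200, edgeR) and -1.21 ± 0.44 in rescued Treg cells (adjusted p = 0.0941, edgeR). The control call for *Pole* was kept in 6 of 8 fits that left out 1 library, and the value was -1.05 without "wannabe" replicate 1 and -1.47 without control Treg replicate 2. *Pold2*, by contrast, had even libraries (57.3, 64.5 and 63.4 CPM in control Treg cells, 75.4, 75.6 and 67.8 in rescued Treg cells, 127 and 117 in "wannabes") and its control call was kept in all 8. The control calls of *Pola2* and *Pole2* were kept in 2 and 4 of 8. *Pole2* was at -1.35, and at -0.55 without "wannabe" replicate 1. *Pola2* ran from -0.67 to -0.53 and was lost when any control library, either "wannabe" library or rescued Treg replicate 2 was left out.

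*Pola1* depended on a single library. It was at 42.9, 30.5 and 40.2 CPM in control Treg cells, 39.4, 35.6 and 47.4 CPM in rescued Treg cells, and 115 and 25.6 CPM in "wannabes", so that 1 "wannabe" library lay above and the other below all Treg libraries. The log2 fold changes of -0.89 ± 0.45 and -0.79 ± 0.45 in control and rescued Treg cells (adjusted p = 0.207 and 0.290, edgeR) became 0.56 and 0.67 without "wannabe" replicate 1.

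Replication protein A coats single-stranded DNA, and its 3 genes all had both activated libraries above the resting ones. *Rpa2* rose in activated "wannabes", from 67.3, 69.1 and 68.3 CPM to 98.9 and 103 CPM (0.57 ± 0.08, adjusted p = 0.00422, edgeR), whereas *Rpa1* (0.17 ± 0.07, adjusted p = 0.152, edgeR) and *Rpa3* (0.33 ± 0.11, adjusted p = 0.0679, edgeR) did not pass by edgeR. DESeq2 called *Rpa3* (adjusted p = 0.0322). In the males *Rpa2* was at 82.5, 54.7 and 97.9 CPM in control Treg cells, 122, 105 and 76.9 CPM in rescued Treg cells and 187 and 146 CPM in "wannabes", and was lower in control Treg cells (-1.08 ± 0.26, adjusted p = 0.0179, edgeR), a call kept in 5 of 8 fits and lost without control Treg replicate 1, control Treg replicate 2 or "wannabe" replicate 1. In rescued Treg cells *Rpa2* was at -0.71 ± 0.26 against "wannabes" (adjusted p = 0.101 with edgeR and 0.0441 with DESeq2). Neither *Rpa1* nor *Rpa3* passed in any comparison of the males.

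*Fen1* and *Lig1* trim and join the short fragments of the lagging strand. *Fen1* went from 71.9, 79.2 and 71.7 CPM in resting to 160 and 182 CPM in activated "wannabes" (1.20 ± 0.09, adjusted p = 6.63e-04, edgeR), and *Lig1* rose by 1.91. Among the males *Fen1* was at 69.3, 67.6 and 100 CPM in control Treg cells, 147, 101 and 116 CPM in rescued Treg cells and 253 and 222 CPM in "wannabes". The 3 groups did not overlap, and *Fen1* was lower than in "wannabes" in control (-1.59 ± 0.22, adjusted p = 0.00136, edgeR) and rescued Treg cells (-0.97 ± 0.22, adjusted p = 0.0140, edgeR). Rescued over control Treg cells gave 0.62 ± 0.20 (adjusted p = 0.149 with edgeR and 0.0476 with DESeq2). *Fen1* shares 78.8% of its exonic bases with the antisense gene *Gm10143*, whose reads cannot be told apart from its own without strand. *Lig1* was lower in control Treg cells than in "wannabes" (-1.33 ± 0.27, adjusted p = 0.00747, edgeR), at -1.60 to -1.08 over the fits that left out 1 library. In rescued Treg cells it was at -0.84 ± 0.27 (adjusted p = 0.0628 with edgeR and 0.0185 with DESeq2).

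The 4 genes of deoxynucleotide supply had the highest median change of all roles with activation, 2.19. *Rrm2*, the regulated subunit of ribonucleotide reductase, changed most of the whole set, from 64.9, 98.6 and 54.1 CPM to 410 and 458 CPM (2.58 ± 0.24, adjusted p = 0.00114, edgeR). *Tk1*, thymidine kinase, went from 9.21, 14.7 and 7.03 CPM to 58.4 and 56.3 CPM (2.48 ± 0.28, adjusted p = 0.00228, edgeR), and *Tyms*, thymidylate synthase, from 22.8, 27.0 and 21.3 CPM to 86.1 and 92.5 CPM (1.91 ± 0.12, adjusted p = 4.56e-04, edgeR). These calls held in each of the 5 fits that left out a female library.

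All 4 were lower in control Treg cells than in "wannabes" of the males by edgeR. For rescued Treg cells 0 passed by edgeR (2 were lower at an unadjusted p under 0.05), while DESeq2 called *Tyms* (adjusted p = 0.0278) and *Tk1* (adjusted p = 0.0450) as lower. *Rrm2* stood at 113, 48 and 161 CPM in control Treg cells, 237, 135 and 155 CPM in rescued Treg cells and 532 and 179 CPM in "wannabes". Replicate 2 of the "wannabes" lay within the range of the rescued libraries, and the control value of -1.73 ± 0.49 (adjusted p = 0.0337, edgeR) became -0.74 (adjusted p = 0.353, edgeR) without "wannabe" replicate 1. *Tyms* was at 41.7, 29.6 and 75.9 CPM in control Treg cells, 66.2, 53.3 and 56.1 CPM in rescued Treg cells and 168 and 75.6 CPM in "wannabes", so control replicate 3 and "wannabe" replicate 2 were level (-1.31 ± 0.38 for control Treg cells, adjusted p = 0.0398, edgeR). That call for *Tyms* was kept in 3 of 8 fits that left out 1 library, and the value was -0.63 without "wannabe" replicate 1. *Tk1* was at 27.8, 27.4 and 55.7 CPM, 64.5, 39.5 and 46.6 CPM, and 113 and 73.6 CPM in the same groups, with no Treg library at the level of a "wannabe" (-1.34 ± 0.34 for control Treg cells, adjusted p = 0.0223, edgeR, kept in 5 of 8 fits and lost without "wannabe" replicate 1, control Treg replicate 1 or control Treg replicate 2).

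The cyclin E and E2F genes, which act at the entry to S phase, all rose in activated "wannabes" and passed in none of the comparisons of the males by edgeR. DESeq2 called *E2f2* as lower in control Treg cells than in "wannabes" (-0.61 ± 0.21 by edgeR, adjusted p = 0.0652 with edgeR and 0.0195 with DESeq2). *Ccne1*, cyclin E1, went from 15.5, 15.3 and 12.9 CPM to 56.1 and 51.2 CPM (1.88 ± 0.13, adjusted p = 4.65e-04, edgeR). *E2f1* went from 6.45, 7.59 and 4.76 CPM to 19.2 and 22.5 CPM (1.73 ± 0.22, adjusted p = 0.00337, edgeR), and *E2f2* from 47.5, 41.1 and 44.7 CPM to 149 and 140 CPM (1.70 ± 0.09, adjusted p = 2.73e-04, edgeR). Per kilobase of exon, *E2f2* was the more abundant E2F gene of the 2 in each group, with 29.6 ± 1.23 against 6.60 ± 0.743 CPM per kb (mean ± SD, n = 2) in activated "wannabes".

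In the males *Ccne1* was at 5.23, 3.97 and 11.4 CPM in control Treg cells, 41.5, 15.4 and 10.5 CPM in rescued Treg cells and 14.6 and 8.93 CPM in "wannabes". Rescued replicate 1 alone was above both "wannabe" libraries by a wide margin. Rescued over control Treg cells gave 1.71 ± 0.55, the largest value of the set in that comparison (adjusted p = 0.145 with edgeR and 0.0229 with DESeq2), and 0.91 without rescued Treg replicate 1. *E2f1* was low in every group, at 4.97, 5.67 and 3.85 CPM in control Treg cells, 8.95, 6.12 and 3.92 CPM in rescued Treg cells and 3.55 and 10.1 CPM in "wannabes". Its 2 "wannabe" libraries lay at the bottom and the top of all 8, and the sign of its change between Treg cells and "wannabes" turned when replicate 2 was left out (0.40 for control and 0.79 for rescued Treg cells).

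The chaperone that places histones behind the fork and the 2 repair genes were higher in activated "wannabes" without exception. *Chaf1b* went from 25.2, 27.1 and 25.2 CPM to 75.1 and 70.6 CPM (1.49 ± 0.09, adjusted p = 4.27e-04, edgeR), while *Chaf1a*, the other chaperone subunit, rose by 0.66. *Brca1*, which acts in repair by homologous recombination, went from 6.87, 6.38 and 5.63 CPM to 29.1 and 25.8 CPM (2.12 ± 0.15, adjusted p = 5.54e-04, edgeR). *Fignl1*, a repair ATPase, rose by 2.42.

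*Brca1* was the gene of the set with the largest difference between Treg cells and "wannabes". Its levels were 9.58, 8.28 and 20.5 CPM in control Treg cells, 21.0, 8.93 and 16.5 CPM in rescued Treg cells and 55.7 and 33.9 CPM in "wannabes". Both "wannabe" libraries were above every Treg library (-1.81 ± 0.45 in control, adjusted p = 0.0204, edgeR, and -1.53 ± 0.45 in rescued Treg cells, adjusted p = 0.0441, edgeR). These calls were kept in 5 and 4 of the 8 fits that left out 1 library, and neither was kept without "wannabe" replicate 1 (-1.41 and -1.14) or without control Treg replicate 1 (-1.64 and -1.53). The control call was also lost without control Treg replicate 2 (-1.57), and the rescued call without rescued Treg replicate 2 (-1.21) or 3 (-1.58). *Chaf1b* was at 60.4, 39.8 and 40.9 CPM in control Treg cells, 90.7, 61.5 and 77.3 CPM in rescued Treg cells and 130 and 65.5 CPM in "wannabes" and was lower in control Treg cells (-1.06 ± 0.30, adjusted p = 0.0353, edgeR), a call kept in 5 of 8 fits and lost without "wannabe" replicate 1 (-0.48), control Treg replicate 2 or control Treg replicate 3. *Chaf1a* did not pass, and it shares 52.5% of its exonic bases with *Ubxn6* on the opposite strand. *Fignl1* was at -1.27 ± 0.44 in control Treg cells against "wannabes" (adjusted p = 0.0730 with edgeR and 0.0147 with DESeq2).

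**Figure D4:**
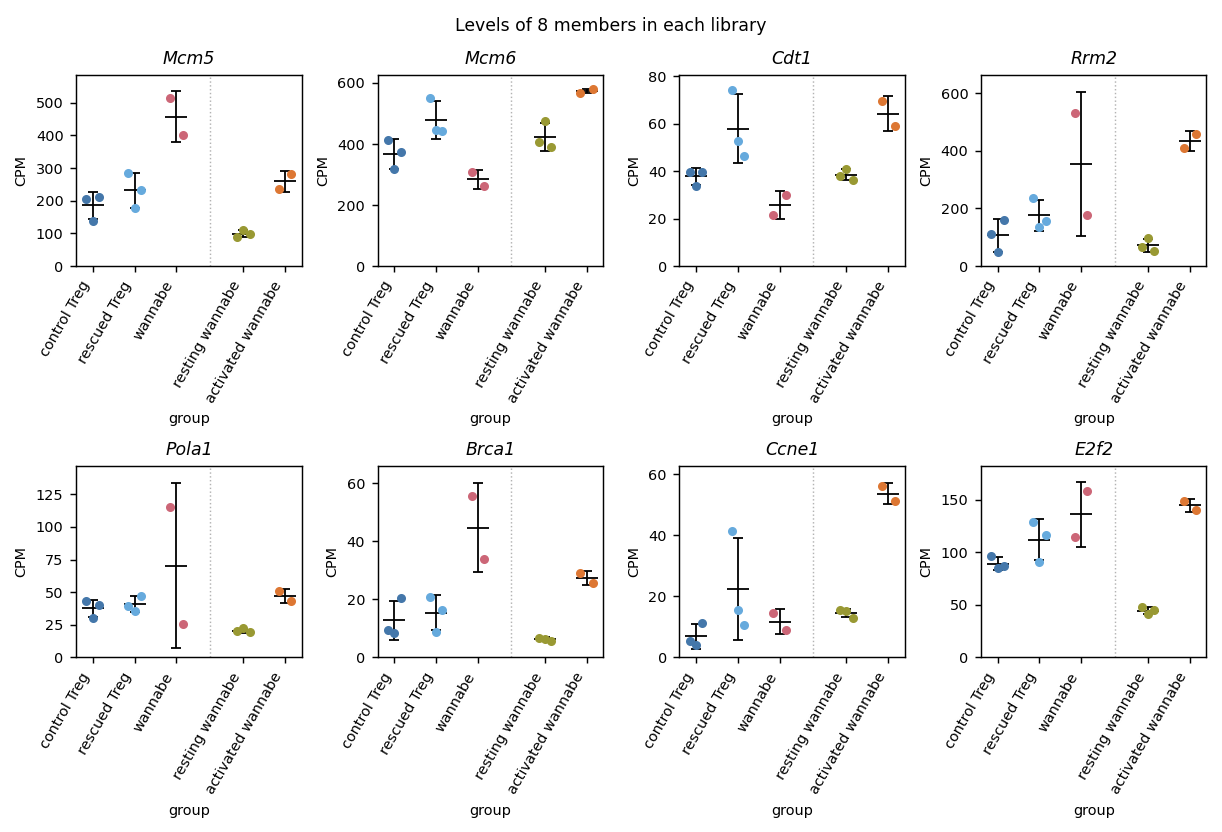
CPM of 8 genes in each library (points, by group, with mean and SD as lines and bars); the dotted line divides the separately scaled males and females. *Mcm6* and *Cdt1* are lowest in "wannabes" of the males, *Rrm2*, *Pola1* and *Brca1* show a high "wannabe" replicate 1 (532, 115 and 55.7 CPM), and *Ccne1* a single high rescued library (41.5 CPM).

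Libraries of a group differed along the whole set. "Wannabe" replicate 1 exceeded replicate 2 in 42 of the 48 genes, with a median ratio of 1.49, and by over 2 times in 11. The ratio was highest for *Ccne2* (7.91, with 48.3 and 6.11 CPM), *Pola1* (4.49) and *Rrm2* (2.97), and the 6 genes that were higher in replicate 2 were *E2f1* (0.351), *Chaf1a*, *Cdt1*, *E2f2*, *Pola2* and *Rfc2*. Control Treg replicate 2 was the lowest of its group for 42 genes, and rescued Treg replicate 1 the highest of its group for 38.

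The genes of mitosis moved with these libraries. Summed over 10 mitosis genes (*Mki67*, *Top2a* and *Cdk1* among them), the level was 1893 and 708 CPM in the 2 "wannabe" libraries, 339, 130 and 593 CPM in control Treg cells and 1083, 507 and 630 CPM in rescued Treg cells. Control Treg replicate 2 and "wannabe" replicate 1, at 130 and 1893 CPM, were the ends of this range too. In the females the sum was 156, 200 and 122 CPM in resting and 1104 and 1090 CPM in activated "wannabes", and all 10 genes were called higher, by 2.15 to 3.29. Of the same 10, 7 were called lower in control Treg cells than in "wannabes", and 0 between rescued Treg cells and "wannabes" or between rescued and control Treg cells by edgeR (0 and 6 at an unadjusted p under 0.05, and 0 for both with DESeq2). The part of cell cycle differences between libraries in the values above was not tested.

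**Figure D5:**
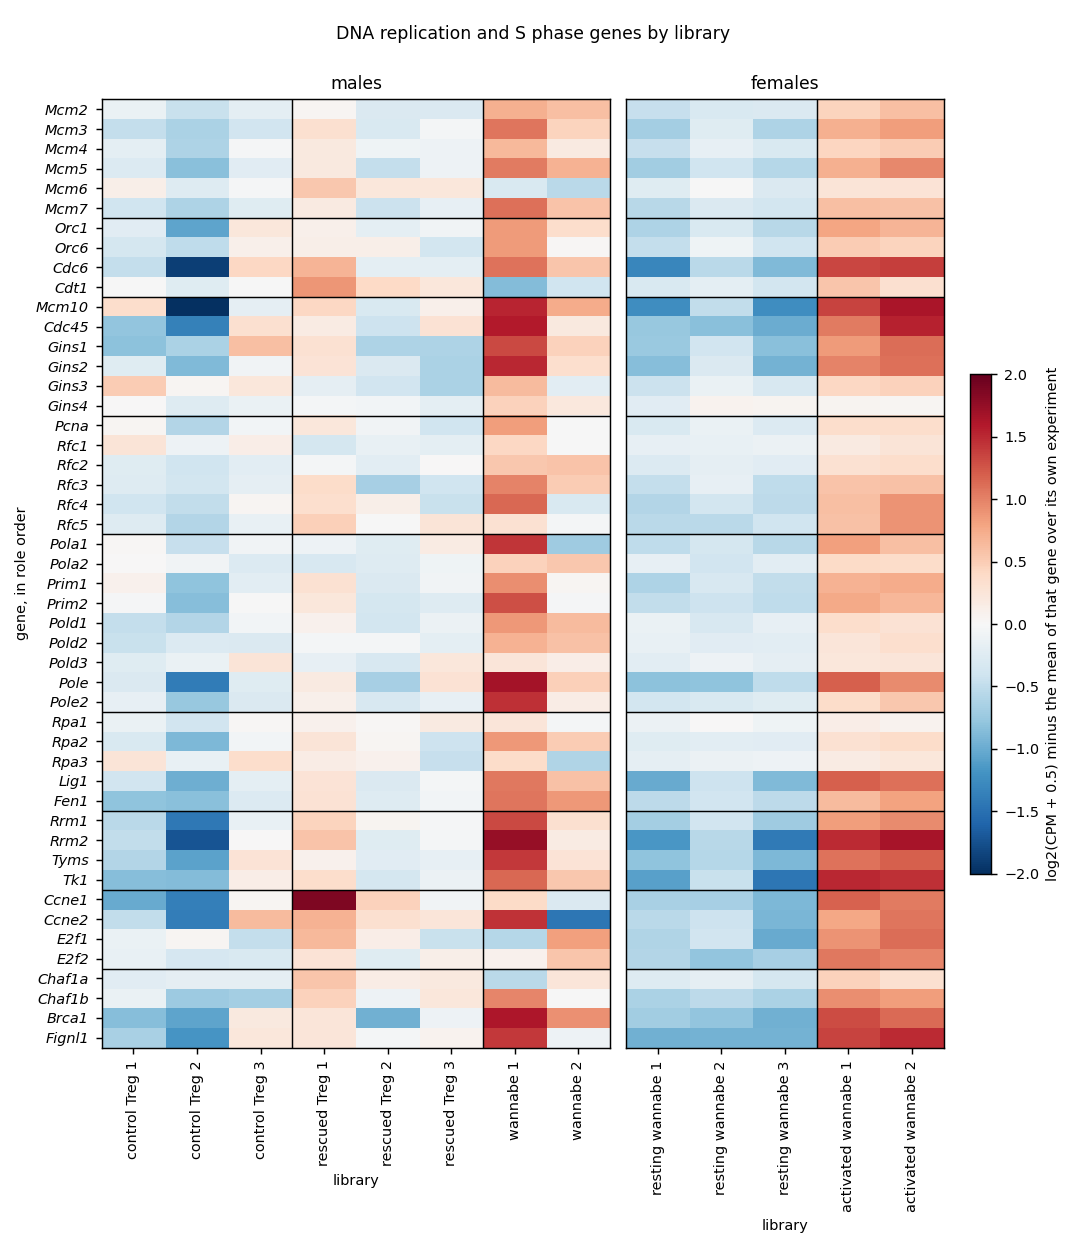
Level of each of the 48 genes (rows, by role) in each library (columns), as log2(CPM + 0.5) minus that gene's mean over the libraries of its own experiment (colour, red above and blue below). "Wannabe" replicate 1 is red in most rows (median 0.95), control Treg replicate 2 blue in most (median -0.62), and the *Mcm6* and *Cdt1* rows are blue in both "wannabe" columns of the males.

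Both experiments compare cells from diseased with cells from healthy mice, in Treg cells of males and in "wannabes" of females, and the difference between these changes was tested over all 13 libraries. It was below 0 for 47 of the 48 genes, so that the fitted change from control to rescued Treg cells lay below that from resting to activated "wannabes", with a median of -0.78 against -0.03 for all genes tested. By edgeR 1 gene passed, *E2f2* (0.730% of genes tested passed as lower), and 0 were higher, also at an unadjusted p and with DESeq2. At an unadjusted p under 0.05, 28 of the 48 were lower (6.66% of genes tested), and DESeq2 called 11 (2.55% of genes tested). *E2f2* (chromosome 4, 136172394 to 136196057, plus strand) was at 96.0, 84.6 and 86.5 CPM in control and 129, 90.7 and 116 CPM in rescued Treg cells (0.33 ± 0.19), against the rise of 1.70 in activated "wannabes", and the difference was -1.35 ± 0.24 (adjusted p = 0.0132, edgeR). It did not pass without activated replicate 1 or without activated replicate 2, and the number of genes was then 0. It was 8 without "wannabe" replicate 1 of the males and 8 without replicate 2, 3 without control Treg replicate 2, 2 without rescued Treg replicate 1 and 2 without resting replicate 2. The "wannabes" of the males carry no weight in this difference, and leaving them out can act only through the filter, the scaling and the shared estimate of spread. Sex, age and treatment differ between the experiments and cannot be told apart from the cell population here.

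Of the other genes of the pathway, 73 were listed by function, and all but *Pold4* were tested in the males. In activated "wannabes" 41 of the 71 tested rose (11.3% of all genes tested) and 4 fell (11.2%), with a median of 0.54. *Clspn*, a fork checkpoint adaptor, rose by 3.35, the repressor *E2f8* by 3.13 and *Dna2*, a nuclease of lagging-strand fragments, by 2.95. The 4 that fell were *Rb1*, the retinoblastoma protein that restrains E2F (-1.22), *Ccnd2* (-0.50), *Cdkn1b* (-0.40) and *Pole4* (-0.36).

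Between control Treg cells and "wannabes", 12 of 72 fell (6.27% of all genes tested) and 5 rose (9.92%) in Treg cells. *Cdkn1a*, the kinase inhibitor p21, had the largest fall among the genes called (-3.35 ± 0.34, adjusted p = 3.82e-04, edgeR), and *E2f8*, *Dna2*, *Asf1b*, *Uhrf1* and *Dnmt1* fell by 1.26 to 2.63 on the log2 scale (-1.26 for *Dnmt1*, -2.63 for *E2f8*). *Rbl2*, an E2F-binding relative of Rb (1.27), *Msh6*, of mismatch repair (1.26), *Asf1a* (1.25), *Rb1* (1.14) and *Samhd1*, which degrades deoxynucleotides (0.80), rose. DESeq2 called 20 as lower (11.0% of all genes tested) and 7 as higher.

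Against the same "wannabes", rescued Treg cells had 9 of 72 genes higher (10.0% of all genes tested) and 6 lower (4.06%), so the share called higher was near that of all genes. *Donson*, a factor of helicase assembly at origins, was higher by 3.14, *E2f6*, a repressor of the E2F family, by 2.50, *Asf1a* by 1.72, *Cdkn2c*, an inhibitor of Cdk4 and Cdk6, by 1.69, *Rbl2* by 1.63, *Dbf4*, the activator of the kinase that fires origins, by 1.33, *Msh6* by 1.16, *Samhd1* by 0.92 and *E2f4* by 0.78. *Cdkn1a* (-1.77) and *E2f8* (-1.41) were lower, along with *Timeless*, *Shmt1*, *Dnmt1* and *Cdk4*. The calls of *Rbl2*, *Msh6*, *Cdkn1a*, *Dnmt1* and *Cdk4* were kept in all 8 fits that left out 1 library. That of *E2f8* was kept in 3 (-0.66 without "wannabe" replicate 1) and that of *Cdkn2c* in 4 (1.01 without rescued Treg replicate 1), and *Donson* was at 1.96 without rescued Treg replicate 1 and lost its call without "wannabe" replicate 1. Over the fits that left out 1 library, *E2f6* ran from 1.98 to 3.20, *Dbf4* from 0.92 to 1.82 and *Asf1a* from 1.38 to 2.06. Each of these, and *E2f4*, *Samhd1*, *Shmt1* and *Timeless*, lost its call in at least 1 such fit. DESeq2 called 13 as higher (14.5% of all genes tested) and 11 as lower (8.39%). Rescued over control Treg cells had 1 gene called by edgeR, *Cdkn1a* (1.58 ± 0.31, adjusted p = 0.0238, edgeR), and 7 by DESeq2, all higher (4.95% of all genes tested). By edgeR 3 genes, *Dna2*, *Shmt1* and *E2f3*, passed the test of the difference between the experiments (0.730% of all genes tested), at -2.63, -1.45 and -1.66, all lower in the Treg comparison, and these calls were kept in 4, 5 and 5 of the 13 fits that left out 1 library. DESeq2 called 12 as lower (2.55%) and 1 as higher (2.95%).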

How the data were processed

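Bulk RNA-seq of doubly sorted T cells (13 libraries, SMART-Seq v4 low-input amplification) was used. Alignment by the authors was to GRCm38 with STAR 2.7.3a, followed by local realignment in GATK and counting in R. Deposited values were raw counts per gene. The annotation and strand setting are not given in the sources used here. Each table held 24421 entries, of which 4 carried no gene name (0.00353 to 0.00841% of counts) and were left out. A floor of 3 counts is 8.18e-06 to 1.17e-05% of a library's total, for counting error only, since reads carry no molecular identifiers.

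Counts were tested in R 4.3.3 with edgeR 4.0.16 (TMM, filterByExpr by group, quasi-likelihood F test, Benjamini-Hochberg adjustment over all genes tested, threshold 0.05). The 8 male libraries shared a fit (common biological coefficient of variation 0.51), the 5 female libraries had their own (0.171), and the difference between the changes used all 13 (0.405). The script was tested on simulated data. Alternatives were DESeq2 1.42.0, its size factors in edgeR, no filter, a replicate block, only the 2 groups compared, and each library left out. Replicate numbers were checked for pairing of samples. CPM are TMM-scaled, exon lengths come from GENCODE M21, and promoters from RefSeq.

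The genes, their roles, the other lists and the tests were chosen with earlier results of these data known. Named with every library are 17 genes spread over the roles, the 3 with the largest change among those called in a comparison and those called against the set's direction. *Gins4* (females) and *Pold2* (males) were added after their values were seen. Columns of the authors' own comparisons were not used, nor were the single-cell data. *Ighm* and *Hbb-bt* of the marker lists were not matched, and *Pold4* had 0 counts.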

Additional observations from a re-analysis of the deposited data

Results flagged for a closer look

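The change of *E2f2* differed between the experiments by the test of the difference itself. Its log2 change from control to rescued Treg cells minus that from resting to activated "wannabes" was -1.35. This was not the largest difference, since the set ran down to -2.03 and the median of the deoxynucleotide supply genes was -1.75. Groups held 2 or 3 libraries each, too few for the check for outlying libraries.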

How the results depend on the processing

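The number of the 48 genes called moved by more than 1.5 times in the following cases. For rescued against control Treg cells, it was 0 with edgeR under each of its alternatives and 2 with DESeq2. For control Treg cells against "wannabes" it ran from 10 to 29 over the 8 fits that left out 1 library. For rescued Treg cells against "wannabes" it was 12, 20 with DESeq2, and 3 to 20 over the fits that left out 1 library. For the difference between the changes it was 1, 11 with DESeq2, 3 with no filter on low counts, and 0 to 8 over 13 such fits. For activated against resting "wannabes" it stayed between 32 and 45 over 5 such fits. Deviations from the group means correlated by -0.0292 to 0.0845 between libraries that shared a replicate number. With 2 or 3 libraries a group, such values cannot settle whether samples were paired. With the replicate number as a block the counts were 0, 27, 18 and 42 for rescued against control Treg cells, control and rescued Treg cells against "wannabes", and activated against resting "wannabes". The block turned the sign of *E2f1* in rescued Treg cells against "wannabes" (0.18). Leaving out 1 library turned the sign of these uncalled values. For rescued over control Treg cells, *Brca1* ran from -0.01 to 0.79, *Gins2* from -0.09 to 0.39, *Pcna* from -0.05 to 0.26, *Pola1* from -0.03 to 0.21, *Rfc3* from -0.27 to 0.31 and *Tyms* from -0.01 to 0.71. Against "wannabes", *Pola1* ran from -1.65 to 0.56 and *E2f1* from -1.07 to 0.40 in control Treg cells, and *Pola1* from -1.54 to 0.67, *E2f1* from -0.68 to 0.79 and *Chaf1b* from -0.81 to 0.22 in rescued ones. In the difference between the changes, *Ccne1* ran from -0.96 to 0.43 and *Rpa2* from -0.36 to 0.02. The cause was not tested. With 2 or 3 libraries a group, and 1 where a library of a pair is left out and assumed to vary like the rest, changes the size of those between rescued and control Treg cells can miss the threshold.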
